A study of Mus musculus with 27 samples.

Results

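The genes of the citric acid cycle and of pyruvate metabolism were described across 9 ischemia times in the mouse kidney. The members were 34 named genes, taken by symbol from a deposited expression table of 19392 genes, and all 34 were found. Each was above 0 FPKM in all 27 kidneys, with 1.2 FPKM as the lowest value, and all 34 entered the tests among 18188 genes. FPKM scales fragment counts by transcript length and by the mapped total, so levels can be compared between genes.

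The samples were left kidneys of wild-type C57BL/6 mice. In every group, sham included, the right kidney had been removed, the mice lay on a 37°C platform, and the kidney was taken 24 h later. The left renal pedicle was clamped for 0 min (the sham control), 16, 18, 20, 22, 24, 26, 28 or 30 min, with 3 mice per time. No age was given in the sources used here, and each library came from kidney tissue with all its cell types mixed. A lower level in such a mixture can mean fewer cells of a type or less RNA per cell, and these cannot be told apart.

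In the citric acid cycle, acetyl-CoA is joined to oxaloacetate, and the resulting citrate is oxidised in mitochondria to release carbon dioxide and reduced cofactors for the respiratory chain. Pyruvate enters mitochondria through the MPC carrier. There it is turned into acetyl-CoA by the pyruvate dehydrogenase complex, or into oxaloacetate by pyruvate carboxylase. Kinases of the Pdk family switch the complex off by phosphorylation, and the Pdp phosphatases switch it back on. The proximal tubule is rich in mitochondria and relies on oxidative metabolism for the transport of salt and solutes.

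The kidneys were checked before the members were described. Summed FPKM lay between 512453 and 554036 per kidney. One of the 3 kidneys of 16 min, replicate 3, stood apart from the other 2 and lay nearer to the sham kidneys than they did. The kidney most correlated with it was 20 min replicate 3 and not a sham kidney. It also had the lowest summed FPKM of all, 512453. The summed level of 4 injured tubule markers (Havcr1, Lcn2, Krt20, Vcam1) in 16 min replicate 3 was 70.2 FPKM, against 728.0 and 1019 FPKM in the other 16 min kidneys. Its 34 members summed to 107% of the 0 min mean, against 89.7% and 83.5%. The sham kidneys were not uniform in the injured tubule markers, with 16.3, 15.6 and 89.9 FPKM, the last in 0 min replicate 3. Values for 16 min are given with and without 16 min replicate 3. Kidney identity was plain, with Slc34a1, a proximal tubule phosphate transporter, at a mean of 2226 FPKM and Umod, a thick ascending limb gene, at 1302 FPKM in the sham kidneys.

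Promoter stretches are shown for members with an absolute log2 fold change over 1 and limma adjusted p under 0.05 at 30 min. The scale was log2(FPKM + 1), quantile normalized between kidneys. Without quantile normalization Me3 (-0.94) and Pdp2 (-0.89) did not pass this rule. Of the 7 that fell, 5 held ACGTG, the core of the hypoxia response element, and are shown, while Idh2 and Me3 held none. Pdk4, the one that rose, is shown as an example without it. For Pdk2 and Pcx, 1 of their 2 windows held the core. They were taken from the RefSeq promoter windows of GRCm38.p6, from 250 bases before to 50 bases after a transcript start. Each is written 5′ to 3′ on the gene's strand, with capitals for ACGTG on either strand, so that CACGTG marks matches on both.
Mdh1, chr11:21572089-21572173, minus strand: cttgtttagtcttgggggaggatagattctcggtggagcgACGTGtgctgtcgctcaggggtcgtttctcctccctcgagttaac
Pdk2, chr11:95041453-95041537, minus strand: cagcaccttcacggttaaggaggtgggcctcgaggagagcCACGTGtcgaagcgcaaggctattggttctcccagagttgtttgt
Pdk3, chrX:93832159-93832243, minus strand: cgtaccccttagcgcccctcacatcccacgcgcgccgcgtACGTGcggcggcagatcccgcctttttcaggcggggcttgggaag
Pdp2, chr8:104591222-104591297, plus strand: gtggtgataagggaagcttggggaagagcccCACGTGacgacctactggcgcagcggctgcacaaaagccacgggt
Pcx, chr19:4510222-4510268, plus strand: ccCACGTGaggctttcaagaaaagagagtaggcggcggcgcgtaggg
Pdk4, chr6:5496236-5496320, minus strand: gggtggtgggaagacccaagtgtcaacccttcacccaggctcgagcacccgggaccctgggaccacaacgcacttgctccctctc

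Of the 34 members, 31 had a RefSeq promoter window. ACGTG was found in 9 of these 31, namely Acly, Idh3g, Mdh1, Ogdh, Pcx, Pdhb, Pdk2, Pdk3 and Pdp2. Over 27025 genes with a window, 21.8% held it. By direction, 8 of the 20 members lower at 30 min and 1 of the other 11 held it. The Sp1 box GGGCGG was present in 21 of 31 members and in 38.2% of all genes. The estrogen-related receptor half-site AAGGTCA was in 2 members (Got1, Ogdh) and 5.38% of all genes, and the NRF1 part GCATGCGC in 1 (Ogdh) and 3.05%. Both strands were searched, and a match describes letters and not a bound site.

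Across the whole course, the members changed little between 16 and 26 min and then fell at 28 and 30 min. Their summed level was 4737 ± 78.5 FPKM (SD, n = 3) at 0 min. It was 93.1% ± 5.69 of that at 26 min. At 28 min 76.3% ± 1.62 remained, and at 30 min 71.5% ± 2.40. Every kidney of 28 and 30 min lay under every kidney of the shorter times. The members did not move as a block, since the kinases summed to 51.2% ± 7.64 at 30 min, the 16 cycle enzymes to 71.3% ± 3.19, and the 4 subunits of the pyruvate dehydrogenase complex to 79.7% ± 1.05. The kinase sum mainly followed Pdk2, which made up 142.3 of its 187.8 FPKM at 0 min. Pdk4, another kinase, rose from 6.13 FPKM at 0 min to 26.3 FPKM at 30 min. Over the same kidneys the summed level of 12 proximal tubule markers was 76.1% ± 14.9 of sham at 26 min. It then dropped to 38.9% ± 1.51 at 28 min and 27.2% ± 3.02 at 30 min. The loop of Henle markers summed to 37.1% and the distal tubule markers to 40.3% of sham at 28 min. The injured tubule markers had a mean of 40.6 ± 42.7 FPKM in sham, raised by 0 min replicate 3 at 89.9 FPKM. They rose to 2202 and 3582 FPKM after 28 and 30 min. One 30 min kidney, replicate 3, stood apart with loop of Henle markers at 132% of sham, against 30.8% and 30.5% in the others, and its members summed to 68.8%, against 72.0% and 73.6%. At 30 min 11 of the 12 proximal tubule markers were lower (median log2 fold change -2.21), and no marker had a mean of 0 at any time. The part of the tubule cells in the members' levels was not tested.

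**Figure D1:**
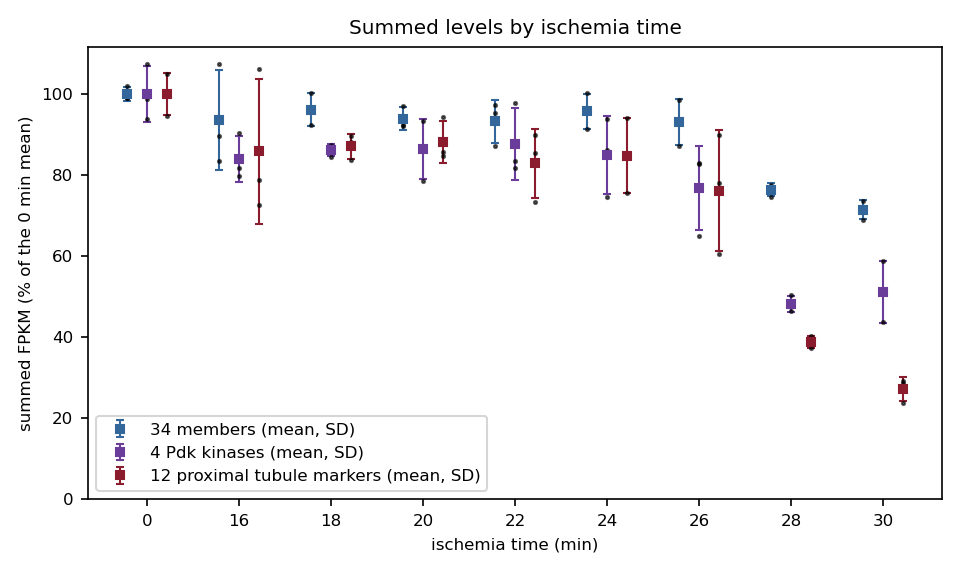
Summed FPKM in percent of the 0 min mean (vertical axis) by ischemia time in min (horizontal axis), for the 34 members, the 4 Pdk kinases and 12 proximal tubule markers. Squares with bars are the mean and SD of 3 kidneys, and dots are kidneys. The members ended at 71.5%, the kinases at 51.2% and the proximal tubule markers at 27.2%.

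Each time was compared with 0 min by limma on log2(FPKM + 1), with adjusted p under 0.05 as the call. The share of all 18188 tested genes that was called is given as background. At 16 min 6 members were lower, where 9.61% of all genes were, and 1 was higher, where 9.43% were. At 18 min 8 were lower and 2 higher, against 15.2% and 12.6% of all genes. At 20 min the members counted 7 lower and 2 higher, against 12.1% and 10.7%. At 22 min they counted 9 lower and 4 higher, against 15.4% and 13.4%. The counts at 24 min were again 9 and 4, with 14.8% and 13.6% as background. At 26 min 8 were lower and 7 higher, with 15.2% and 14.9% as background. The share of members called lower thus stood at 17.6% at 16 min and 23.5% at 26 min.

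At 28 min 22 members were lower, where 23.6% of all genes were, and 4 were higher, where 24.5% were. At 30 min 20 were lower and 8 higher, against 25.4% and 26.9%. Without 30 min replicate 3 the members counted 21 lower and 7 higher, against 23.9% and 26.1% of all genes. The median log2 fold change of the members was -0.11 after 16 min and -0.12 after 26 min of ischemia. The value for 16 min was -0.20 without replicate 3, the kidney that stood apart, and -0.03 without replicate 2. After 28 and 30 min it was -0.34 and -0.30. It was -0.37 and -0.43 without quantile normalization and -0.39 and -0.43 on the TPM scale. Without 30 min replicate 3 it was -0.43 after 30 min, so the order of the 2 times depended on these choices. The median of all genes was within 0.01 of 0 at these times, where quantile normalization between kidneys holds it. Without that step it was 0.03 and 0.04. DEGs were genes with an absolute log2 fold change over 1 and adjusted p under 0.05. No member was a DEG at 16, 18, 20, 22, 24 or 26 min, where 2.25%, 3.06%, 2.51%, 3.29%, 3.12% and 3.77% of all genes were. At these 6 times 14 to 19 members had an unadjusted p under 0.05. The share of all genes under that threshold was not counted, so this number has no background. At 28 min 6 members were DEGs, all lower, against 8.48% of all genes, and at 30 min 8 were, 7 lower and 1 higher, against 10.7%.

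**Figure D2:**
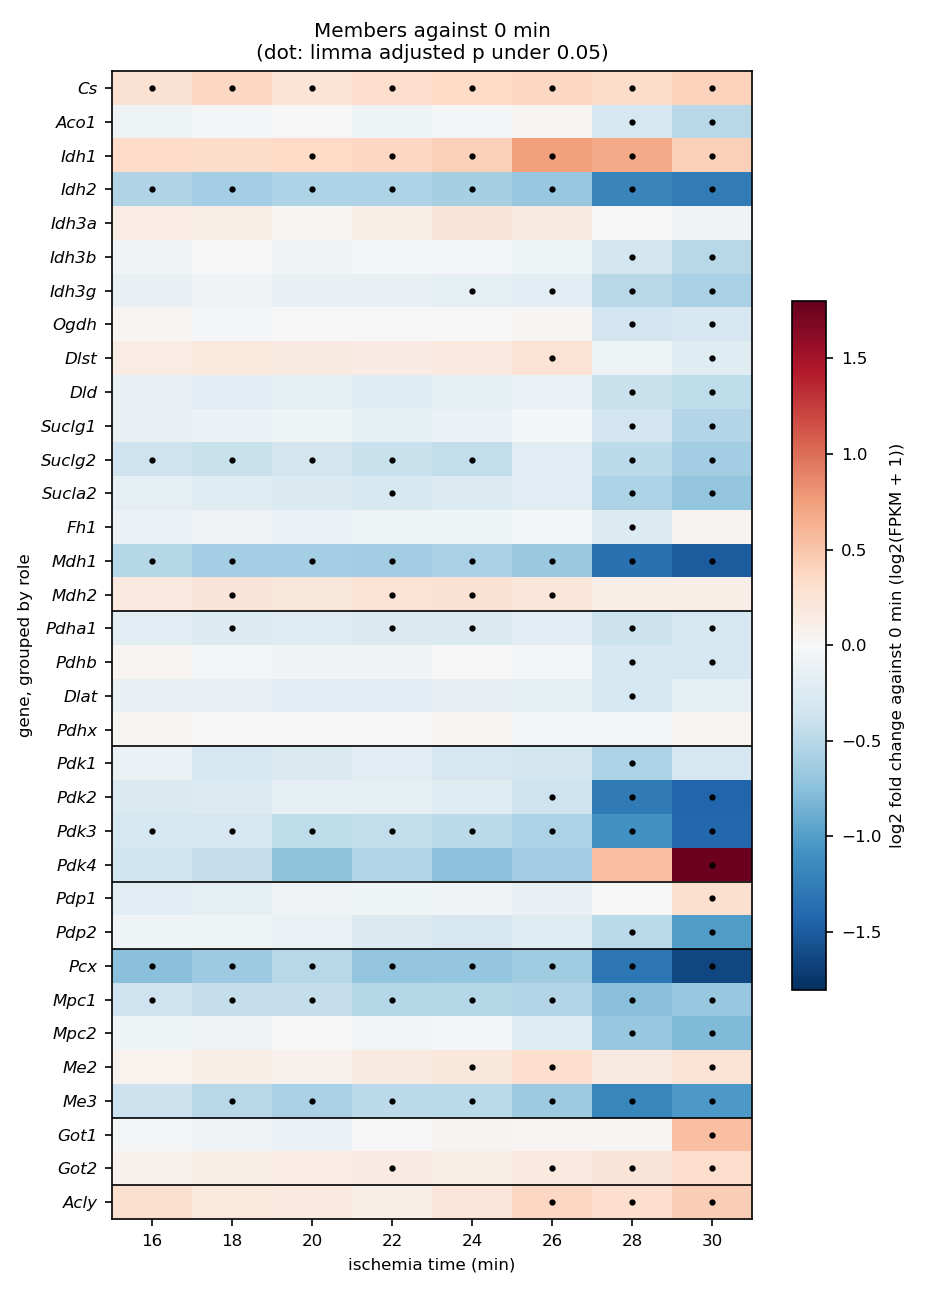
Log2 fold change against 0 min, on the log2(FPKM + 1) scale, of the 34 members (rows, grouped by role with lines between groups) at each ischemia time (columns, min). Blue is lower and red higher than 0 min, and a dot marks limma adjusted p under 0.05. Idh2, Mdh1, Pdk3, Pcx and Mpc1 were lower and Cs was higher at all 8 times, and the blue deepened at 28 and 30 min.

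The cytosolic malate dehydrogenase gene Mdh1 (chr11:21556692-21571934), whose enzyme interconverts malate and oxaloacetate in the malate-aspartate shuttle, was the most abundant member in the sham kidneys. It measured 552.01, 561.86 and 506.06 FPKM at 0 min and 381.74, 350.92 and 545.05 FPKM at 16 min. The values at 26 min were 396.18, 421.47 and 335.9 FPKM. At 28 min they were 218.59, 252.36 and 232.73 FPKM, and at 30 min 188, 198.35 and 200.24 FPKM. Only the 16 min kidney that stood apart reached the sham range, and the 28 and 30 min kidneys lay under all kidneys of shorter times. The log2 fold change was -1.34 ± 0.16 (SE) at 28 min (limma adjusted p = 1.24e-06) and -1.50 ± 0.16 at 30 min (1.77e-07).

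The mitochondrial enzyme gene Mdh2 took another course. It measured 320.9 ± 16.4 FPKM (SD, n = 3) at 0 min and was higher at 18, 22, 24 and 26 min, by 0.22 to 0.28 on the log2 scale. The call at 26 min was lost without any 1 of the 26 min kidneys. At 30 min its change was 0.12 with a 95% interval of -0.05 to 0.29. Within a kidney the ratio of Mdh1 to Mdh2 was therefore 1.69 ± 0.142 in sham and 0.985 ± 0.0544 at 26 min. After 28 and 30 min it was 0.644 ± 0.0813 and 0.551 ± 0.0480.

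The isocitrate dehydrogenases showed a similar split by place in the cell, but the other way round. Idh2 (chr7:80094845-80118608), the mitochondrial enzyme that makes NADPH, measured 281.4, 253.15 and 290.7 FPKM at 0 min. It was at 170.32, 157.18 and 264.78 FPKM at 16 min and at 182.6, 184.63 and 149.11 FPKM at 26 min. At 28 min the kidneys had 111, 126.48 and 119.22 FPKM, and at 30 min 100.31, 111.4 and 113.73 FPKM. The sham kidneys overlapped only with the 16 min kidney that stood apart. The log2 fold change was -1.19 ± 0.15 at 28 min (limma adjusted p = 2.06e-06) and -1.25 ± 0.15 at 30 min (6.58e-07).

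Idh1, which codes for the cytosolic and peroxisomal NADPH-forming enzyme, was called higher from 20 min on. At 16 and 18 min Idh1 was already at 0.35 and 0.33 on the log2 scale, with all kidneys above sham. It was not called there (limma adjusted p = 0.0608 and 0.0576). Its mean rose from 204.4 ± 4.54 FPKM (SD, n = 3) in sham to 331.2 ± 17.2 at 26 min, and stood at 323.5 ± 19.9 and 253.7 ± 53.0 after 28 and 30 min. These were log2 fold changes of 0.74, 0.68 and 0.43, and the 30 min kidneys overlapped with sham. At 30 min the call was lost without quantile normalization (0.29, limma adjusted p = 0.084). The ratio of Idh1 to Idh2 moved from 0.745 ± 0.0489 in sham to 1.94 ± 0.275 at 26 min. After 28 and 30 min it was 2.73 ± 0.300 and 2.36 ± 0.606.

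**Figure D3:**
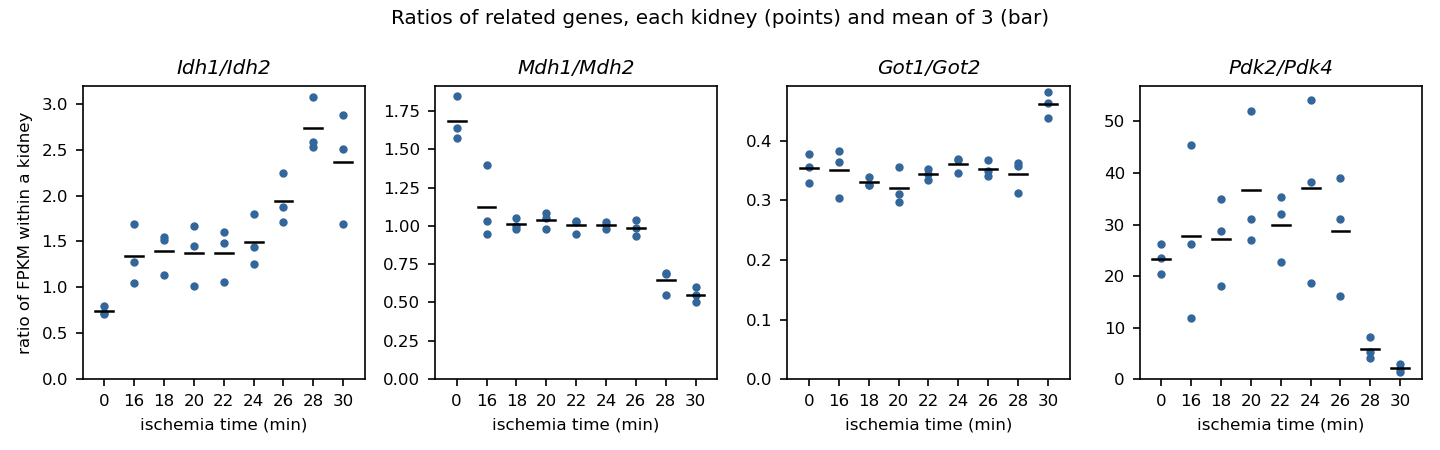
Ratio of FPKM of related genes within a kidney (vertical axes, from 0) by ischemia time in min (horizontal axes). Points are kidneys and bars the mean of 3, shown as a description with no test. Idh1/Idh2 rose from 0.745 to 2.73 at 28 min, Mdh1/Mdh2 fell from 1.69 to 0.551 at 30 min, Got1/Got2 was 0.461 at 30 min against 0.354 at 0 min, and Pdk2/Pdk4 was 2.13 against 23.4.

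The NAD-dependent isocitrate dehydrogenase, the form that drives the cycle, has 3 subunits. The catalytic subunit gene Idh3a was called at no time, with 78.4 ± 7.92 FPKM at 0 min and 75.1 ± 2.93 at 30 min, and a 95% interval of -0.28 to 0.14 for the log2 fold change. The genes of the other subunits were lower at both of the longest times. Idh3b was at -0.32 and -0.51, and Idh3g at -0.50 and -0.58, on the log2 scale at 28 and 30 min.

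Citrate synthase, the enzyme of the first step, was the only member higher at all 8 times. Cs rose from 126.8 ± 5.44 FPKM at 0 min to 155.2 ± 8.11 at 16 min and was 155.1 ± 8.97 at 30 min, and its log2 fold change ranged from 0.25 at 20 min to 0.42 at 30 min. Aco1, the cytosolic aconitase that also binds RNA as an iron regulatory protein, was lower only at 28 and 30 min (-0.30 and -0.49). The oxoglutarate dehydrogenase complex turns 2-oxoglutarate into succinyl-CoA. Its genes Ogdh (-0.35 and -0.30) and Dld (-0.40 and -0.46), of which Dld also serves the pyruvate dehydrogenase complex, were lower at both longest times. The Ogdh call at 30 min was lost without 0 min replicate 1, 30 min replicate 1 or 30 min replicate 2 and in a fit of those groups alone, with limma adjusted p up to 0.0911. Dlst was higher at 26 min (0.25) and lower at 30 min (-0.22). The first of these calls was lost without 26 min replicate 2 (0.18, limma adjusted p = 0.0679) and the second without 0 min replicate 1 (-0.19, 0.0515). Fh1, the fumarase, was lower at 28 min (-0.25, 95% interval -0.45 to -0.05), and at 30 min its change was 0.05 with an interval of -0.16 to 0.25. The Fh1 call at 28 min was lost when any 1 of the 3 sham kidneys was left out.

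Succinyl-CoA ligase makes GTP or ATP according to its beta subunit, and all 3 of its genes fell. Suclg2, for the GTP form, measured 147.16, 174.72 and 165.35 FPKM at 0 min, 113.17, 115.76 and 143.96 at 16 min, and 130.97, 148.02 and 139.67 at 26 min. At 28 min it was at 115.13, 118.5 and 110.38 FPKM, and at 30 min at 103.98, 103.61 and 89.05 FPKM. All kidneys of 28 and 30 min lay under the sham kidneys, and 1 kidney of 26 min reached into the sham range. Sucla2, for the ATP form, measured 92.37, 89.89 and 82.43 FPKM at 0 min, 73.89, 69.66 and 99.73 at 16 min, and 77.25, 89.67 and 73.45 at 26 min. Its values were 60.64, 61.79 and 62.36 FPKM at 28 min and 55.87, 54.57 and 49.94 FPKM at 30 min, under all kidneys of 0, 16 and 26 min.

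The log2 fold changes at 30 min were -0.63 ± 0.09 (SE) for Suclg2, -0.71 ± 0.11 for Sucla2 and -0.53 ± 0.08 for Suclg1, the shared alpha subunit (limma adjusted p = 8.1e-06, 1.07e-05 and 5.86e-06). The ratio of Suclg2 to Sucla2 was 1.85 ± 0.223 at 0 min and 1.85 ± 0.0589 at 30 min.

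The pyruvate dehydrogenase complex has 4 subunit genes among the members. Pdha1 and Pdhb, the subunits of the first enzyme, were lower at 28 min (-0.39 and -0.30) and at 30 min (-0.30 for each), and the Pdhb call at 28 min was lost without 0 min replicate 1 (-0.23, limma adjusted p = 0.0541). Dlat, the acetyltransferase core, was lower at 28 min (-0.32) and at -0.17 at 30 min, where it was not called, with an interval of -0.39 to 0.04. Without quantile normalization the Dlat call at 28 min was lost (limma adjusted p = 0.0546). Pdhx, the protein that anchors Dld to the core, was called at no time. It measured 16.4 ± 0.873 FPKM at 0 min and 18.1 ± 0.276 FPKM at 30 min, and the interval of its log2 fold change at 30 min was -0.15 to 0.21.

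Among the 4 kinases, Pdk2 and Pdk3 fell while Pdk4 rose. Pdk2 (chr11:95026258-95041371), the most abundant of the 4 in the sham kidneys, measured 156.59, 139.51 and 130.69 FPKM at 0 min. It was at 114.56, 109.39 and 128.26 FPKM at 16 min and at 123.95, 121.44 and 87.37 FPKM at 26 min. At 28 min the values were 55.9, 63.45 and 55.72 FPKM, and at 30 min 46.39, 53.47 and 51.56 FPKM. The 6 kidneys of 28 and 30 min lay under every other kidney. The Pdk2 call at 26 min was lost without 0 min replicate 1 or 2 or 26 min replicate 3, with 0.183 as the highest limma adjusted p. Against sham Pdk2 changed by -0.37 on the log2 scale at 26 min, by -1.28 ± 0.12 at 28 min (limma adjusted p = 6.99e-08) and by -1.43 ± 0.12 at 30 min (7.2e-09).

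Pdk3 (chrX:93764616-93832150) was lower at all 8 times. Its kidneys had 29.82, 30.87 and 31.31 FPKM at 0 min, 26.69, 24.13 and 27.03 at 16 min, and 19.8, 22.48 and 22.95 at 26 min. They had 14.31, 16.25 and 15.37 FPKM at 28 min and 13.34, 10.33 and 11.3 FPKM at 30 min. No kidney of 16, 26, 28 or 30 min overlapped with sham, the 16 min kidney that stood apart included. Pdk3 changed by -0.57 on the log2 scale at 26 min, by -1.09 ± 0.08 at 28 min (limma adjusted p = 3.75e-09) and by -1.41 ± 0.08 at 30 min (4.11e-11).

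Pdk4 (chr6:5483351-5496278), a kinase known to be induced by fasting and glucocorticoids, was the only member that was a DEG in the upward direction. It measured 5.97, 6.87 and 5.54 FPKM at 0 min, 4.36, 9.27 and 2.82 at 16 min, and 3.18, 3.91 and 5.39 at 26 min. It then stood at 10.81, 7.76 and 13.34 FPKM at 28 min and at 15.58, 26.29 and 37 FPKM at 30 min. The 30 min kidneys were all above every other kidney. Their spread was wide, with an SD of 10.7 on a mean of 26.3 FPKM, and so was that of 16 min, with 3.37 on 5.48 FPKM. At 30 min the log2 fold change was 1.77 ± 0.34 (limma adjusted p = 0.000196), and at 28 min 0.54 with a 95% interval of -0.18 to 1.25 (0.213). Pdk4 was higher at 28 than at 26 min by 1.16 ± 0.34 (0.0224) and at 30 than at 28 min by 1.23 ± 0.34 (0.0224). The step from 28 to 30 min lost its call without 28 min replicate 2 (1.03, 0.103), 30 min replicate 2 (1.19, 0.0596) or 30 min replicate 3 (0.93, 0.151). The step from 26 to 28 min lost it without 26 min replicate 1 or 2 or 28 min replicate 1 or 3, with 0.0983 as the highest p.

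The ratio of Pdk2 to Pdk4 was 23.4 ± 2.97 in sham and 28.7 ± 11.6 at 26 min. After 28 and 30 min it was 5.84 ± 2.08 and 2.13 ± 0.797. Pdk1 was low throughout, with 8.70 ± 0.606 FPKM at 0 min, and was lower at 28 min only (-0.57, 95% interval -0.95 to -0.19). That call was lost without 28 min replicate 3 (limma adjusted p = 0.0603), and Pdk1 was called lower at 30 min without 30 min replicate 3 (-0.52, 0.0164).

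**Figure D4:**
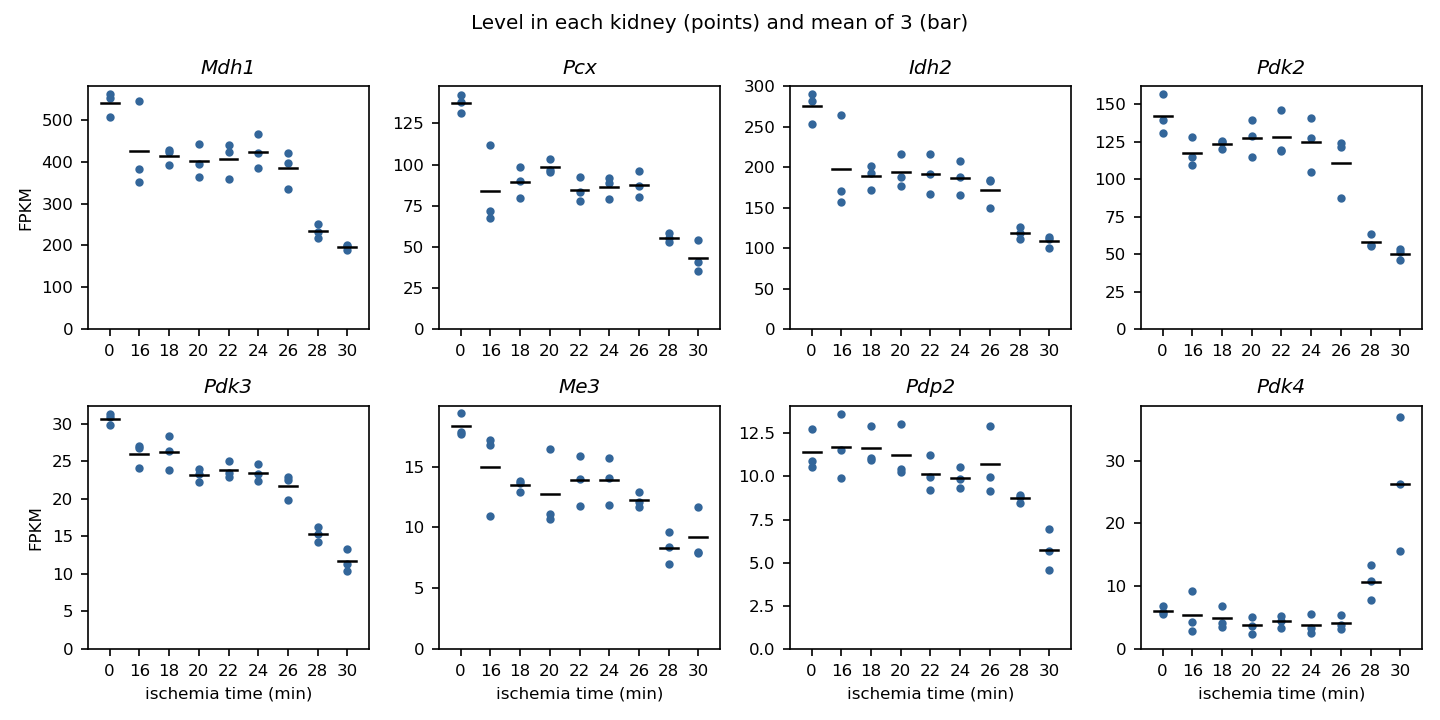
FPKM in each kidney (points) and the mean of 3 (bars) by ischemia time in min, for the 8 members that were DEGs at 30 min. Each vertical axis starts at 0 and has its own range. Mdh1, Pcx, Idh2, Pdk2 and Pdk3 fell in all kidneys of 28 and 30 min, and Pdk4 reached 15.58 to 37 FPKM at 30 min.

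The phosphatases that reverse the kinases moved in opposite directions at 30 min. Pdp2 measured 12.73, 10.89 and 10.57 FPKM at 0 min, 9.88, 11.52 and 13.63 at 16 min, and 9.98, 12.94 and 9.15 at 26 min. It was at 8.48, 8.82 and 8.9 FPKM at 28 min and at 6.93, 5.66 and 4.58 FPKM at 30 min. The groups of 0, 16 and 26 min overlapped, and the 30 min kidneys lay under all of them. The log2 fold change was -0.48 ± 0.14 at 28 min (limma adjusted p = 0.00814) and -1.01 ± 0.14 at 30 min (5.16e-06). Pdp1 was the lower of both genes, with 2.06 ± 0.0757 FPKM at 0 min and 3.07 ± 0.370 at 30 min. Its change of 0.29 at 30 min was called (0.0193), but not without 0 min replicate 3, 30 min replicate 2 or 30 min replicate 3, with 0.0745 as the highest p.

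Among the genes of pyruvate entry and anaplerosis, Pcx (chr19:4510472-4621752) fell most. It codes for pyruvate carboxylase, which refills oxaloacetate and starts gluconeogenesis. It measured 131.25, 142.31 and 137.72 FPKM at 0 min, 67.46, 72.06 and 111.66 at 16 min, and 86.7, 95.94 and 80.44 at 26 min. At 28 min it was at 55.37, 58.2 and 52.68 FPKM, and at 30 min at 40.74, 54.18 and 35.28 FPKM. All ischemic kidneys shown were under the sham kidneys, with the 16 min kidney that stood apart as the nearest to them. Pcx changed by -0.75 and -0.65 on the log2 scale after 16 and 26 min, by -1.30 ± 0.15 at 28 min (limma adjusted p = 7.85e-07) and by -1.64 ± 0.15 at 30 min (2.29e-08), the last being the largest fall of any member.

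The genes of the 2 subunits of the mitochondrial pyruvate carrier were called lower at different times. Mpc1 measured 366.44, 371.55 and 376.32 FPKM at 0 min, 305.67, 242.51 and 361.31 at 16 min, and 269.73, 285.18 and 260.78 at 26 min. It had 220.54, 227.81 and 237.24 FPKM at 28 min and 222.15, 236.78 and 226.41 FPKM at 30 min, so the 2 longest times overlapped fully. Mpc2 measured 230.35, 226.42 and 211.88 FPKM at 0 min, 223.64, 174.15 and 230.78 at 16 min, and 202.93, 193.92 and 159.62 at 26 min. It had 129.8, 132.29 and 135.58 FPKM at 28 min and 121.98, 109.73 and 119.67 FPKM at 30 min. Mpc1 was lower at all 8 times, with log2 fold changes of -0.37 to -0.76, and Mpc2 only at 28 and 30 min (-0.68 and -0.79, limma adjusted p = 1.8e-05 and 2.08e-06). Whether the courses of the genes differed was not tested, and the 26 min kidneys of Mpc2 already lay under all sham kidneys.

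The malic enzymes, which turn malate into pyruvate in mitochondria, differed as well. Me3 (chr7:89632284-89854359), the NADP-dependent form, measured 19.37, 17.87 and 17.66 FPKM at 0 min, 16.8, 10.9 and 17.14 at 16 min, and 12.92, 12.05 and 11.7 at 26 min. It was at 8.37, 9.59 and 7.01 FPKM at 28 min and at 7.92, 7.99 and 11.66 FPKM at 30 min. All these kidneys lay under the sham kidneys, and at 30 min replicate 3 was close to the 26 min range. The log2 fold change was -1.17 ± 0.18 at 28 min (limma adjusted p = 1.63e-05) and -1.03 ± 0.18 at 30 min (5.13e-05). Me2, the NAD-dependent form, was present at 1.34 FPKM at 0 min and 2.03 FPKM at 30 min, and was higher at 24, 26 and 30 min (0.21, 0.30 and 0.24). The call at 30 min was lost without 30 min replicate 1 (0.14, 0.0939).

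The aspartate aminotransferases exchange carbon between the cycle and amino acids, where Got2 codes for the mitochondrial form and Got1 for the cytosolic one. Got2 was higher at 22, 26, 28 and 30 min, with 193.9 FPKM at 0 min, 213.8 at 28 min and 216.3 at 30 min, and log2 fold changes of 0.23 and 0.32 at the longest times. On the TPM scale these changes were 0.13 and 0.16 and were not called (limma adjusted p = 0.13 and 0.0513). Got1 measured 68.6 FPKM at 0 min, 73.4 at 28 min and 99.8 at 30 min. Its change at 28 min was 0.02 with a 95% interval of -0.20 to 0.23, and at 30 min 0.54 with an interval of 0.32 to 0.75. Acly, the cytosolic enzyme that splits exported citrate into acetyl-CoA for lipid synthesis, was higher at 26, 28 and 30 min (0.37, 0.30 and 0.44). The Acly call at 26 min was lost without 26 min replicate 2 (limma adjusted p = 0.0727), and that at 28 min without 0 min replicate 3 (0.0774) or 28 min replicate 1 (0.139).

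**Figure D5:**
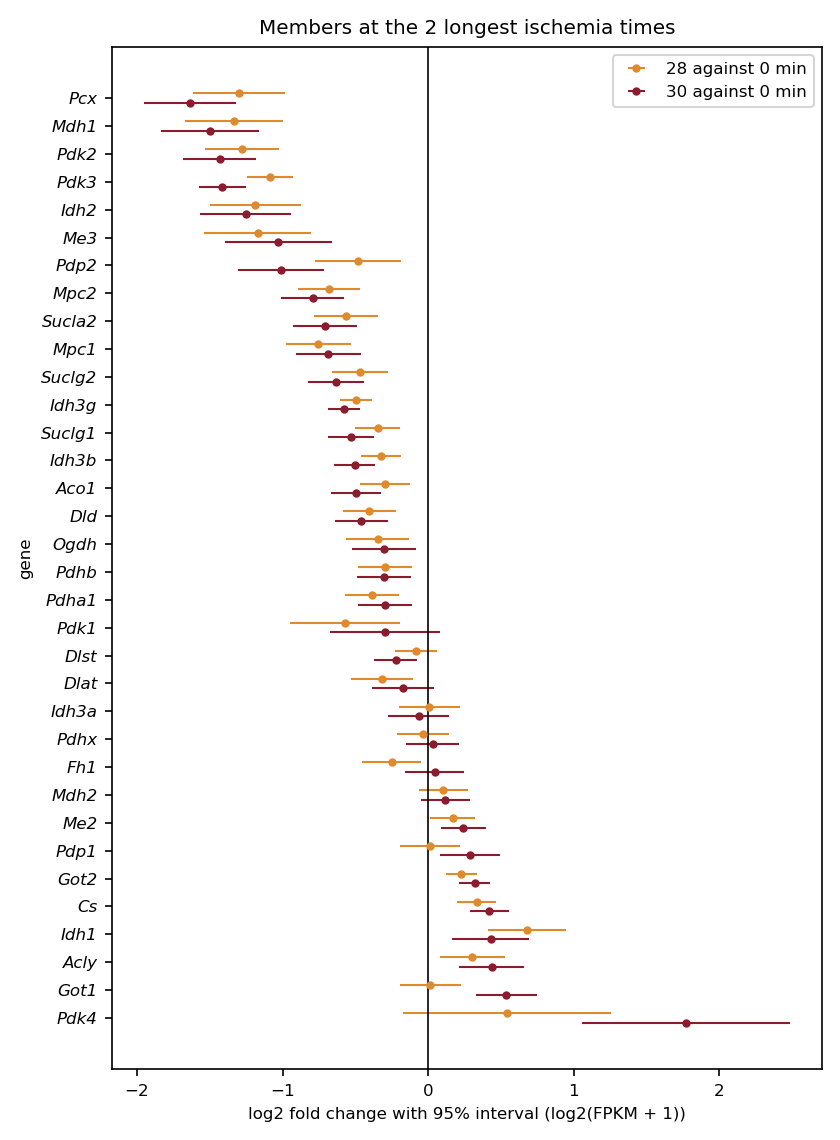
Log2 fold change against 0 min on the log2(FPKM + 1) scale (horizontal axis) with 95% intervals from limma, for the 34 members (rows, ordered by the value at 30 min) at 28 min (orange) and 30 min (dark red). Values ran from -1.64 for Pcx to 1.77 for Pdk4 at 30 min, and the intervals of the 2 times overlapped for most members.

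The step from 26 to 28 min was tested directly. Of the 34 members, 17 were lower at 28 min, where 8.52% of all genes were, and 1 was higher, where 10.8% were. The median was -0.25 against 0.00 for all genes, which quantile normalization holds near 0. Without that step the medians were -0.25 and 9.2e-05. By role, 11 of the 16 cycle enzymes, 1 of the 4 complex subunits (Pdhb), 2 kinases (Pdk2, Pdk3) and 3 of the 5 entry genes (Pcx, Mpc2, Me3) were lower. The largest falls were those of Pdk2 (-0.91 ± 0.12, limma adjusted p = 6.49e-05), Mdh1 (-0.67 ± 0.16, 0.00632) and Pcx (-0.65 ± 0.15, 0.0048). Pdk4, the one member that was higher, was also the one DEG, and 1.5% of all genes were DEGs. Without 26 min replicate 2, 9 members and 4.99% of all genes were lower, and without 28 min replicate 3, 10 members and 5.51%. Among the marker genes, 10 of the 12 proximal tubule markers fell at the same step.

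From 28 to 30 min fewer members moved. Pdk3 (-0.33) and Pdp2 (-0.53) were lower, where 6.77% of all genes were, and Fh1 (0.30), Got1 (0.52) and Pdk4 (1.23) were higher, where 6.47% were. Pdk4 was the only DEG among them, and 1.05% of all genes were. Their limma adjusted p-values were 0.0091, 0.0181, 0.0478, 0.00284 and 0.0224. Leaving out 28 min replicate 2 left Pdk3 and Got1, where 3.62% of all genes were lower and 3.39% higher, leaving out 30 min replicate 3 left 0 members lower where 2.36% of all genes were, and Fh1 lost its call under 11 of its 14 alternatives.

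From 16 to 26 min no member was called in either direction or as a DEG. The background was 0 as well, since limma called 0 of the 18188 genes. At an unadjusted p under 0.05 there were 3 members, Idh1 (0.39), Me2 (0.24) and Pdk3 (-0.26), all with limma adjusted p of 0.323 or more. For this threshold, too, the share of all genes was not counted.

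The 6 members lower at 16 min were Pcx (-0.75), Idh2 (-0.53), Mdh1 (-0.51), Suclg2 (-0.37), Mpc1 (-0.37) and Pdk3 (-0.32). Without the kidney that stood apart 12 members and 14.8% of all genes were lower, with Dld, Suclg1, Sucla2, Pdha1, Dlat and Pdp1 added to these 6. In that fit Pcx was at -0.99, Mdh1 at -0.80 and Idh2 at -0.78. Without 16 min replicate 1, 2 members and 6.05% of all genes were lower, and without 16 min replicate 2, 1 member and 4.93%.

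Other genes of the same pathways were counted from a list of 36. After both 28 and 30 min 21 were lower and 3 higher, with a median of -0.48 after 30 min, and 17 were lower and 2 higher between 26 and 28 min. The succinate dehydrogenase subunit genes Sdha (-0.78), Sdhb (-0.76) and Sdhc (-0.59) were lower at 30 min, and Sdhd was at -0.06. The cytosolic malic enzyme gene Me1 fell by 1.14 on the log2 scale and Acss2, an acetyl-CoA synthetase, by 2.90, from a mean of 110.1 FPKM to 13.9 FPKM. Lactate dehydrogenase genes differed, with Ldhb at -0.85 and Ldha at 0.04. Glud1, which turns glutamate into 2-oxoglutarate, was higher by 0.38. The coactivator gene Ppargc1a (-1.08) and the receptor gene Esrra (-0.45), known regulators of mitochondrial genes, were lower.

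Neighbouring pathways were counted at 30 min beside the members' 20 lower and 8 higher. Of 36 nuclear genes of oxidative phosphorylation, 31 were lower and 0 higher, with a median of -0.38. Of 18 genes of mitochondrial fatty acid oxidation, 11 were lower and 2 higher, with a median of -0.49. Of 15 glycolysis genes, 4 were lower and 9 higher, with a median of 0.35. These lists were not tested against each other.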

How the data were processed

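RNA of 27 kidneys was sequenced on DNBSEQ-G400. The deposited values were FPKM per gene, computed by the authors. The submitters' processing notes name Bowtie2, RSEM, DESeq2 and GRCm38.p6, with no versions. FPKM keeps no read totals, so the depth of each kidney is unknown and low genes such as Me2 and Pdp1 are the least precise.

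Values were tested as log2(FPKM + 1), quantile normalized between kidneys, in limma 3.58.1 (R 4.3.3) as a single fit of all 27 kidneys in which every ischemia time had its own mean. Genes above 0 FPKM in at least 3 kidneys were kept (18188). P-values were two-sided and adjusted by Benjamini-Hochberg over all tested genes. Fold changes on this scale understate those of low genes. P-values rest on 3 mice per time. In a simulated comparison of 30 against 0 min over 18188 genes, 200 of 200 genes changed by 2 (log2) were recovered, with 20 false calls. The changed genes were drawn from the better expressed ones, and all genes were given a common spread. Members changed by -1.64 to 1.77 at 30 min, so the simulation does not show how often changes of their size are found.

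The members, roles, other lists and motifs were chosen with earlier results of these data known. Values in each kidney of 0, 16, 26, 28 and 30 min are given for the 12 members with the largest change at 30 min. Positions and promoter windows are from RefSeq (GRCm38.p6) and were matched by symbol, for all 34 members and 31 members. Idh3a, Me2 and Pdp1 had no window. Python 3.11.15 and matplotlib 3.10.9 drew the plots. The alternatives tried were TPM, values not quantile normalized, a pseudocount of 0.1 FPKM, a filter of 1 FPKM, no filter, fits of the compared groups alone, a trended prior, a replicate block, and leaving out each kidney.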

Additional observations from a re-analysis of the deposited data

How the results depend on the processing

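At 28 and 30 min against 0 min the counts of members lower moved little when 1 kidney was left out (19 to 22 and 18 to 21), and members that were DEGs stayed at 6 at 28 min and at 6 to 8 at 30 min. In these fits 20.8% to 22.5% of all genes were lower at 28 min and 22.7% to 24.5% at 30 min. DEGs among all genes numbered 1484 to 1642 and 1871 to 2052. Over all alternatives for single members, 4921 values kept their side of the threshold, 50 passed it and 265 no longer passed it. With a call in either fit, 0 values reversed. Changes of sign with a call in neither fit were not counted apart and fall among the 4921. Without quantile normalization 3186 genes were lower and 5600 higher at 28 min (4301 and 4460 with it), and 3715 and 5899 at 30 min (4616 and 4895 with it), and Me3 (-0.94) and Pdp2 (-0.89) were no longer DEGs. Counts of members that moved by more than 1.5 times are given here, and smaller moves, such as 15 lower in place of 17 from 26 to 28 min with a pseudocount of 0.1 FPKM, are not. With a pseudocount of 0.1 FPKM, 1 was higher at 18 min and 1 at 20 min, where 12.4% and 10.5% of all genes were. Without quantile normalization, 3 were higher at 16 min, 5 at 18 min and 7 at 24 min, where 15.8%, 19.6% and 20.9% of all genes were higher. On the TPM scale 3 were higher at 16 min, where 17.4% of all genes were, and 5 lower at 24 min, where 7.39% were. With no filter, 1 was higher at 20 min, where 9.8% of all genes were. In fits of the compared groups alone, 0 were lower and 0 higher at 16 min, where 0.055% and 0.033% of all genes were. In such fits 1 was higher at 18 min, 1 at 20 min and 2 at 22 min, against 12.2%, 8.74% and 14.3% of all genes. From 28 to 30 min 0 were lower, 0 higher and 0 DEGs, and the fit called 0 of the 18188 genes. Leaving out 1 kidney gave 1 to 12 lower and 1 to 3 higher at 16 min, 1 to 2 higher at 18 min, 3 to 7 lower and 1 to 2 higher at 20 min, 1 to 3 higher at 22 min, 2 to 4 at 24 min and 4 to 7 at 26 min. From 26 to 28 min leaving out 1 kidney gave 9 to 14 lower, 0 to 1 higher and 0 to 2 DEGs. Of all genes, 4.99% to 8.34% were lower and 6.27% to 10.5% higher, and 198 to 365 genes were DEGs. From 28 to 30 min it gave 0 to 3 lower, 1 to 3 higher and 0 to 1 DEGs. Of all genes, 2.36% to 8.82% were lower and 2.5% to 9.08% higher, and 83 to 339 genes were DEGs. The cause of these moves was not tested. Replicate numbers showed no pairing of the kidneys. Kidneys of the same number correlated in their deviations with a median of -0.0087, and 25 of 108 pairs were over 0.1. For kidneys of different numbers the median was -0.00999, and 53 of 216 pairs were over 0.1. With a replicate block 14 members were lower from 26 to 28 min in place of 17, and 8.09% of all genes in place of 8.52%.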
